A study of Mus musculus with 9 samples.

Results

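The STAT transcription factors Stat2, Stat3, Stat4, Stat5a, Stat5b and Stat6 were examined, 6 of the 50686 genes counted. They were chosen by gene symbol as members of the STAT family and followed across all 9 libraries. All 6 had at least 146 counts in every library and passed the filter on low counts, so all 6 were tested.

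The libraries were made from polyadenylated RNA of cultured BCR/ABLp185+ lines, that is, bone marrow cells of C57BL/6N mice into which the BCR/ABL oncogene was introduced. All lines carry this oncogene and were grown in RPMI medium with fetal calf serum. The wt line has both Stat5 genes, the Stat5a-/- line comes from mice without Stat5a and the Stat5b-/- line from mice without Stat5b. There was 1 cell line per genotype with 3 technical replicates, so that every p-value below measures the spread between replicates of a line and compares 3 lines, not 3 genotypes. The titles and genotype labels of the knockout libraries contradict their description field, which calls them wt lines, and the former were used.

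STAT proteins rest in the cytoplasm until Janus kinases at a cytokine receptor phosphorylate them, and they then pair, enter the nucleus and bind DNA. BCR/ABL is known to activate STAT5 without a cytokine. STAT5A and STAT5B are close paralogs that bind the same kind of DNA element, whereas STAT2 acts with IRF9 in the interferon-responsive complex ISGF3, STAT3 follows the interleukin-6 family, STAT4 interleukin-12 and STAT6 interleukin-4.

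The 6 genes lie on 3 mouse chromosomes (GRCm38). Stat5b (chr11:100780731-100850724, minus strand), Stat5a (chr11:100859351-100885169, plus strand) and Stat3 (chr11:100885098-100939540, minus strand) are neighbours. Only 8626 bases separate Stat5b from Stat5a, and Stat5a and Stat3 overlap by 72 exonic bases on opposite strands. Reads from these bases cannot be told apart because strand was not used in the counting. Stat6 (chr10:127642986-127660957) and Stat2 (chr10:128270559-128292849) are 609601 bases apart on the plus strand, and Stat4 lies at chr1:51987148-52107189 on the plus strand.

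Stat5a and Stat5b resemble each other so closely that many 50-base reads fit both. Their coding sequences were identical at 90.8% of 2291 aligned bases, with 1 run of 324 identical bases spread over 3 exons of each gene. The middle exon of this run is printed to show what a read from either gene looks like there. It is the same 152 bases at chr11:100874339-100874490 on the plus strand in Stat5a and at chr11:100798234-100798385 on the minus strand in Stat5b (GRCm38).

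Stat5a and Stat5b shared exon: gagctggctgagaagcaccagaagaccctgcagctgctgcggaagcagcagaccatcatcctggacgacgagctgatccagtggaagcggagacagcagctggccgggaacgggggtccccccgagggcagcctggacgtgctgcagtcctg

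Of the 50-base stretches in annotated transcripts, 8.52% of the 7407 of Stat5a and 11% of the 5535 of Stat5b also occurred in another gene, and 608 were shared between the paralogs. Reads with several map positions are not counted, and both genes therefore lose reads from the same exons. Stat4 shared 21.7% of its 3871 stretches, 840 of them with Gm28177, a gene annotated on the same strand. Exons of Gm28177 and Stat4 overlap by 1033 bases. Reads on several genes are not counted either, so reads from these bases are lost to both genes. The count of Gm28177, no more than 2 in any library, therefore does not measure its level. The share of such stretches was 0.788% for Stat2, 0.555% for Stat3 and 0% for Stat6.

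The upstream sequences of Stat2 and Stat4 are printed because both genes were higher in the Stat5b-/- line and because these sequences hold the only matches among the 6 genes to the interferon-response type of motif. RefSeq (GRCm38.p6) gives 9 windows of 300 bases around start sites for the 6 genes. Both strands were searched for GAAANNGAAA (TTTCNNTTTC on the other strand), which was found in 2 of the 9 windows and in 3.44% of 32851 such windows of all genes. The match lay 222 bases before the start of Stat2 and 97 bases before the second listed start of Stat4. The first listed start of Stat4 had no such match, nor did the windows of Stat5a, which was also higher in the Stat5b-/- line. Capitals mark this motif, and in Stat2 also the only match to TTCNNNNGAA, the spacing STAT6 prefers, which was present in 6.95% of all windows. The sequences run from chr10:128270248-128270497 and chr1:52007990-52008239, both on the plus strand, and end just before the start site.

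Stat2 upstream: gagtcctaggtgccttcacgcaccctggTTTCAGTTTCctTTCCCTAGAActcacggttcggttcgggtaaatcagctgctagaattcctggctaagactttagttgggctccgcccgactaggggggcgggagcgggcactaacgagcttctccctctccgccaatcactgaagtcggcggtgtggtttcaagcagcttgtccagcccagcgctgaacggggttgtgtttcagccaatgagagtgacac

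Stat4 upstream: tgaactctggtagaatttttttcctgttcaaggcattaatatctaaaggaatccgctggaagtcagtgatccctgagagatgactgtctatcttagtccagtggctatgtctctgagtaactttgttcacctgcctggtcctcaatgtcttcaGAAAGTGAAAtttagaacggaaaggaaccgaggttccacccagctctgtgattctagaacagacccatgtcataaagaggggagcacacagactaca

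TTCNNNGAA, the element bound by STAT5 and most other STAT dimers, was found in 0 of the 9 windows and in 8.3% of all windows. These matches describe letters only.

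Depth ranged from 11948136 to 19016396 counted reads per library. The chi-square of replicate pairs, divided by its degrees of freedom, was 5.049 to 31.393, above what sampling alone gives, and each replicate was kept as 1 library. Within a line, libraries also deviated with the GC content of genes, with correlations across genes between -0.482 and 0.525. Stat4 had the lowest exonic GC content of the 6 genes, 45.4%, and Stat5a the highest, 57.9%. All 15 B-lineage markers had reads in every line, with summed levels of 6760 to 7370 normalized CPM in wt, 9200 to 10100 in Stat5a-/- and 7950 to 9030 in Stat5b-/-. Rag1, a recombinase gene of B-cell precursors, had a mean of 64.7 normalized CPM in wt libraries and 0.158 and 0.667 in the Stat5a-/- and Stat5b-/- libraries. All 17 T-cell markers also had reads in every line. Their summed level was 893 to 1210 normalized CPM in wt, 1560 to 1810 for Stat5a-/- and 2010 to 2850 for Stat5b-/-. In such bulk samples, fewer cells of a type and less RNA per cell cannot be told apart. Normalized CPM express counts relative to library size, corrected with edgeR's TMM factors, and called genes passed a Benjamini-Hochberg adjusted p of 0.05 in edgeR's quasi-likelihood test over 13852 genes.

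The genes targeted in the knockout lines come first. Stat5a had 48.2, 36.0 and 45.3 normalized CPM in the wt libraries, 11.8, 11.9 and 13.6 in the Stat5a-/- libraries and 87.1, 91.7 and 72.2 in the Stat5b-/- libraries. The lines did not overlap, with the Stat5a-/- libraries lowest and the Stat5b-/- libraries highest. Stat5a was 3.47-fold lower in the Stat5a-/- line than in wt (log2 fold change -1.80 ± 0.14 (SE), adjusted p = 4.69e-07, edgeR) and kept 28.8% of the wt level, which corresponds to 146 to 169 counts per library. In the Stat5b-/- line it was 1.94-fold higher than in wt (0.96 ± 0.13, adjusted p = 5.95e-05, edgeR). This value lay just below 2-fold and was above it without wt replicate 1 (1.04), without Stat5b-/- replicate 3 (1.06) and with the T-cell marker sum as a covariate (1.65 ± 0.33, adjusted p = 0.00963, edgeR).

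Stat5b had 107, 103 and 106 normalized CPM in the wt libraries, 145, 124 and 156 in the Stat5a-/- libraries and 72.3, 58.5 and 59.5 in the Stat5b-/- libraries. Here too no library of a line reached the range of another line, but the order was the opposite of that of Stat5a. Stat5b was 1.66-fold lower in the Stat5b-/- line than in wt (log2 fold change -0.73 ± 0.11, adjusted p = 0.000169, edgeR) and kept 60.1% of the wt level. With the T-cell marker sum as a covariate, Stat5b was -0.82 ± 0.35 in this comparison and lost its call (adjusted p = 0.167, edgeR). In the Stat5a-/- line it was 1.34-fold higher than in wt (0.43 ± 0.11, adjusted p = 0.00942, edgeR). This rise lost its call, with the same sign, without Stat5a-/- replicate 1 (0.39, adjusted p = 0.0511), without Stat5a-/- replicate 3 (0.32, adjusted p = 0.0593) and with the T-cell marker sum as a covariate (0.38, adjusted p = 0.215, all by edgeR). Counts are summed over whole genes and do not separate a deleted part of a gene from transcripts of the rest, so these levels do not measure how much intact transcript remained.

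**Figure D1:**
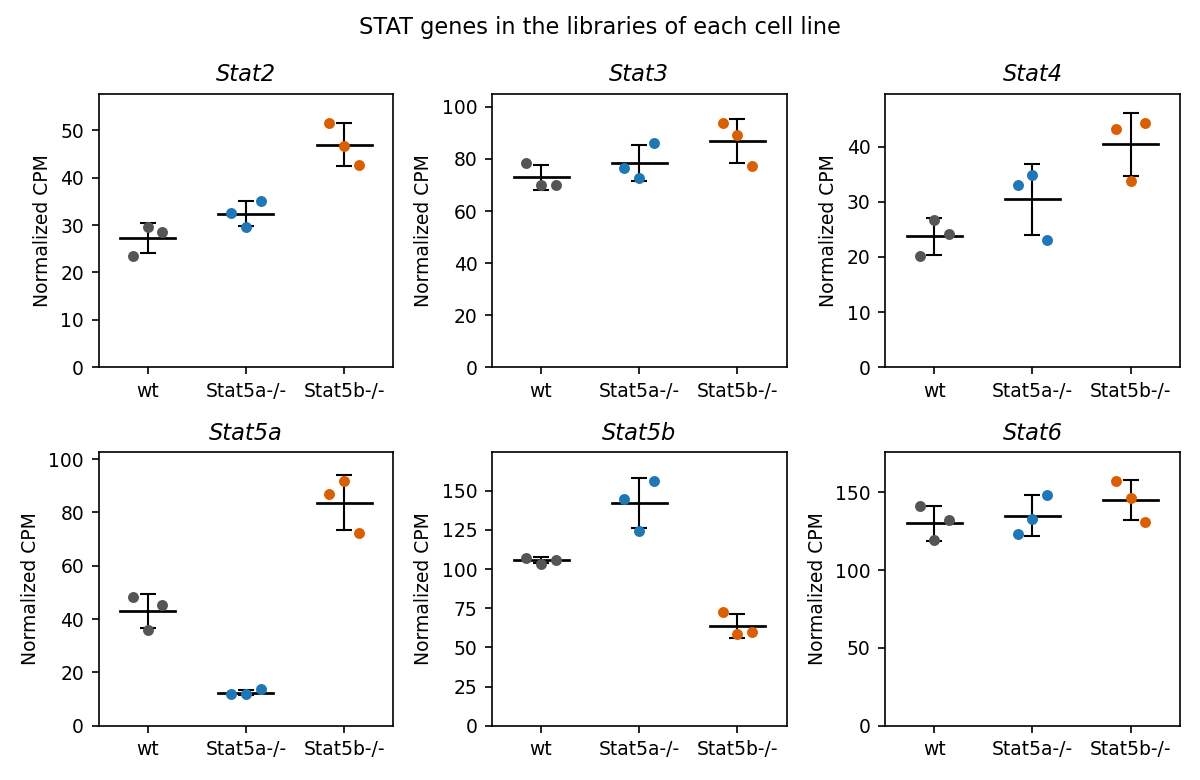
Normalized CPM (vertical axes, from 0) of the 6 STAT genes in the 3 libraries (points) of the wt, Stat5a-/- and Stat5b-/- lines, with the mean (long bar) and SD (error bar). Stat5a and Stat5b separate all 3 lines in opposite orders, whereas the points of Stat3 and Stat6 overlap between lines.

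Together, Stat5a and Stat5b made up a similar number of reads in each line, but in different proportions. Their levels summed to 149 ± 8.3 normalized CPM in the wt libraries, to 154 ± 16.7 in those of Stat5a-/- and to 147 ± 14.1 in those of Stat5b-/- (mean and SD, n = 3 each). The ratio to wt was 1.04 for the Stat5a-/- line (p = 0.7) and 0.99 for the Stat5b-/- line (p = 0.9, two-sided exact permutation tests). With 3 libraries against 3, the smallest p this test can give is 0.1, and its direction changed when single libraries were left out, with ratios between 0.985 and 1.10 for the Stat5a-/- line and between 0.948 and 1.04 for the Stat5b-/- line. Per kilobase of exon the sum was 25.1, 27.3 and 23.2 normalized CPM in wt, Stat5a-/- and Stat5b-/-.

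The share of Stat5a in all Stat5 counts was 31.1%, 25.9% and 29.9% in the wt libraries, with 95% Wilson intervals that reach from 24.3% to 32.9% over the 3 libraries. It was 7.54%, 8.71% and 8.03% in the Stat5a-/- libraries, within intervals from 6.52% to 10.2%. In the Stat5b-/- libraries it was 54.6%, 61.1% and 54.8%, within intervals from 52.5% to 63.1%. The lines did not overlap in this share, and the spread between replicates of a line exceeded a single interval in wt and Stat5b-/- libraries. Intervals cover counting error only.

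The mean share of Stat5a was thus 28.9% ± 2.73 (SD, n = 3) in wt. This lay 20.8 percentage points above the 8.10% ± 0.586 of Stat5a-/- and 27.9 points below the 56.8% ± 3.65 of Stat5b-/-. Each of the 3 differences between lines had p = 0.1 in a two-sided exact permutation test, the smallest p that 3 against 3 libraries allow. Because Stat5a has the longer exon model, 7133 against 5539 bases, its share per length was lower, 24.0% in wt, 6.40% in Stat5a-/- and 50.6% in Stat5b-/-. By this measure Stat5b transcripts outnumbered those of Stat5a in wt, and the paralogs stood at nearly equal levels in the Stat5b-/- line.

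**Figure D2:**
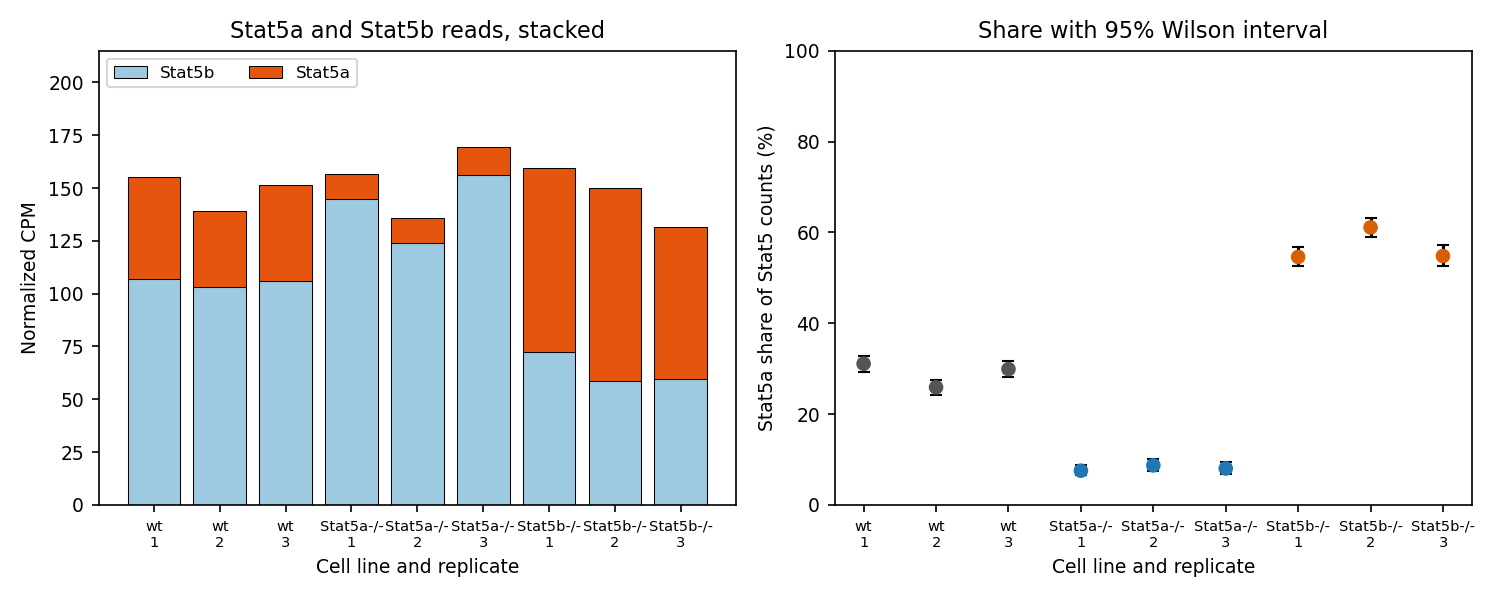
Left, normalized CPM of Stat5b (lower part of each bar) and Stat5a (upper part) in each of the 9 libraries. Right, the percentage of Stat5a in the summed Stat5 counts (points) with its 95% Wilson interval (bars). The points lie between 25.9% and 31.1% in wt, at no more than 8.71% in Stat5a-/- and at no less than 54.6% in Stat5b-/- libraries.

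Over both genes and all 9 libraries, log2 levels of Stat5a and Stat5b had a Pearson correlation of -0.903. This describes 3 lines in which 1 or the other gene was knocked out and carries no test. The next lowest value among the pairs of the 6 genes was -0.661, for Stat2 and Stat5b. The highest value was that of Stat3 and Stat6, 0.866. All these values come from the same 9 libraries, which differ in depth and in GC bias.

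Stat2 supplies the transactivating part of ISGF3. It had 23.5, 29.5 and 28.5 normalized CPM in the wt libraries, 32.6, 29.6 and 35 in the Stat5a-/- libraries and 51.6, 46.7 and 42.7 in the Stat5b-/- libraries. Every Stat5b-/- library lay above every library of the other lines, while the lowest Stat5a-/- library was only just above the highest wt library. Stat2 was 1.73-fold higher in Stat5b-/- than in wt (log2 fold change 0.79 ± 0.12, adjusted p = 0.000166, edgeR) and 1.45-fold higher than in Stat5a-/- (0.54 ± 0.12, adjusted p = 0.00468, edgeR). For Stat5a-/- against wt it was 0.25 ± 0.12 (adjusted p = 0.136, edgeR), which did not pass the test. Both calls of Stat2 in Stat5b-/- were lost with the T-cell marker sum as a covariate. The values were then 0.50 ± 0.35 against wt (adjusted p = 0.402) and 0.40 ± 0.19 against Stat5a-/- (adjusted p = 0.198, both by edgeR).

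Stat4 is best known from T and NK cells. It had 20.1, 26.7 and 24.2 normalized CPM in the wt libraries, 33.1, 34.9 and 23.1 in the Stat5a-/- libraries and 43.1, 33.8 and 44.3 in the Stat5b-/- libraries. The Stat5b-/- and wt libraries did not overlap, but 1 Stat5a-/- library fell within the wt range and another above the lowest Stat5b-/- library. Stat4 was 1.70-fold higher in Stat5b-/- than in wt (log2 fold change 0.77 ± 0.17, adjusted p = 0.00216, edgeR). It was 0.36 ± 0.17 in Stat5a-/- against wt (adjusted p = 0.116, edgeR) and 0.41 ± 0.17 in Stat5b-/- against Stat5a-/- (adjusted p = 0.078, edgeR). Without Stat5a-/- replicate 3 the first of these became 0.49 (adjusted p = 0.0227), and without Stat5b-/- replicate 2 the last became 0.52 (adjusted p = 0.0473, both by edgeR). The first also passed with the GC offset (0.45, adjusted p = 0.0105), alone or with the replicate block (0.44, adjusted p = 0.0246), and the last without a low-count filter (0.40, adjusted p = 0.0275, all by edgeR).

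The level of Stat4 moved with reads of T-cell genes. In each line the library with the lowest summed T-cell markers also had the lowest Stat4. These were wt replicate 1 with 893, Stat5a-/- replicate 3 with 1560 and Stat5b-/- replicate 2 with 2010 normalized CPM of markers. In wt and Stat5a-/- this library also had the highest correlation of deviation with the GC content of genes (0.467 and 0.525). In Stat5b-/-, replicate 1 was highest (0.319), replicate 2 had 0.158 and replicate 3, with the highest Stat4, had -0.449. Stat4 had the lowest exonic GC content of the STAT genes examined, 45.4%. Whether GC bias underlies the pattern within lines was not tested. With the log2 sum of the markers as a covariate, Stat4 was -0.45 ± 0.35 in Stat5b-/- against wt (adjusted p = 0.458, edgeR) and the sign was negative in all 3 comparisons. With the same covariate Stat2 was 0.50 ± 0.35 in Stat5b-/- against wt (adjusted p = 0.402, edgeR). The ranges of the marker sum in the 3 lines did not overlap, so that line and marker level cannot be told apart. The 10 NK-cell markers summed to 85.9 to 132 normalized CPM in wt, 116 to 148 in Stat5a-/- and 161 to 268 in Stat5b-/- libraries. The single NK-cell markers did not all follow this order. Nkg7 had means of 55.3, 76.3 and 121 normalized CPM in wt, Stat5a-/- and Stat5b-/-, Klrb1c had 10.3, 4.43 and 1.63, and Ncr1 had no more than 5 counts in any library. Myeloid markers summed to no more than 11.2 and erythroid markers to no more than 1.46 normalized CPM in any library.

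**Figure D3:**
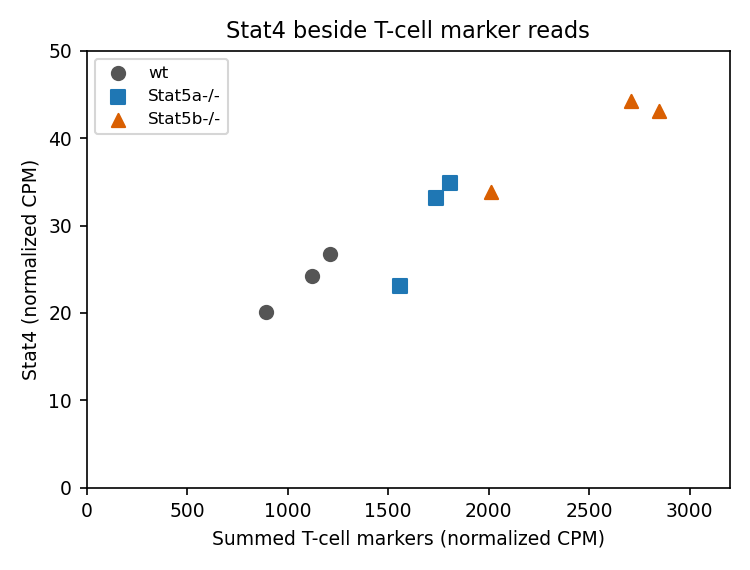
Normalized CPM of Stat4 (vertical axis) against the summed normalized CPM of 17 T-cell markers (horizontal axis) in the 9 libraries, with a symbol for each line. Stat4 runs from 20.1 in wt replicate 1 to 44.3 in Stat5b-/- replicate 3, and within each line the lowest Stat4 comes with the lowest marker sum. In wt and Stat5a-/- this library also has the highest correlation of deviation with the GC content of genes.

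Stat3 had 78.6, 70.1 and 70.1 normalized CPM in the wt libraries, 76.5, 72.7 and 86.1 in the Stat5a-/- libraries and 93.9, 89.2 and 77.4 in the Stat5b-/- libraries. The lines overlapped in all 3 comparisons. The log2 fold change from wt was 0.10 ± 0.11 for Stat5a-/- (adjusted p = 0.494) and 0.25 ± 0.11 for Stat5b-/- (adjusted p = 0.0741), and that between the knockout lines was 0.15 ± 0.11 (adjusted p = 0.319, all by edgeR). Without Stat5b-/- replicate 3, the lowest library of its line, the second value became 0.33 and passed the test (adjusted p = 0.0282, edgeR). It also passed with an offset for GC content, alone (0.24, adjusted p = 0.016) or with the replicate block (0.24, adjusted p = 0.0335, both by edgeR), which made 4 STAT genes higher in Stat5b-/- than in wt.

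Stat6 had 141, 119 and 132 normalized CPM in the wt libraries, 123, 133 and 148 in the Stat5a-/- libraries and 157, 146 and 131 in the Stat5b-/- libraries. It showed the smallest differences of the 6 genes, and libraries overlapped in every comparison. The log2 fold change from wt was 0.05 ± 0.11 for Stat5a-/- (adjusted p = 0.783) and 0.15 ± 0.11 for Stat5b-/- (adjusted p = 0.288), and that between the knockout lines was 0.10 ± 0.11 (adjusted p = 0.496, all by edgeR). With the GC offset alone, Stat6 (0.20, adjusted p = 0.0334) and Stat3 (0.22, adjusted p = 0.0323) passed between the knockout lines, but not with the offset and the replicate block (all by edgeR).

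In all, 1 of the 6 genes was higher (Stat5b) and 1 lower (Stat5a) in Stat5a-/- than in wt, where 36.0% of all tested genes were called, 19.8% higher and 16.3% lower. In Stat5b-/- against wt, 3 genes were higher (Stat2, Stat4 and Stat5a) and 1 lower (Stat5b), with 46.2% of all tested genes called, 24.2% higher and 22.0% lower. Both comparisons share the wt libraries. In Stat5b-/- against Stat5a-/-, 2 genes were higher (Stat2 and Stat5a) and 1 lower (Stat5b), with 33.9% of all tested genes called, 16.4% higher and 17.5% lower. A change past 2-fold was found only for Stat5a in Stat5a-/- against wt and for Stat5a (6.74-fold) and Stat5b (2.23-fold) between the knockout lines. Such calls covered 14.2% of tested genes in Stat5a-/- against wt, 19.1% in Stat5b-/- against wt, where none of the 6 genes passed (log2 fold change of Stat5a 0.96), and 11.4% between the knockout lines. Libraries did not overlap between the lines for Stat2, Stat5a and Stat5b in Stat5a-/- against wt (49.2% of all tested genes), for these and Stat4 in Stat5b-/- against wt (54.2%) and for Stat2, Stat5a and Stat5b between the knockout lines (44.8%).

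**Figure D4:**
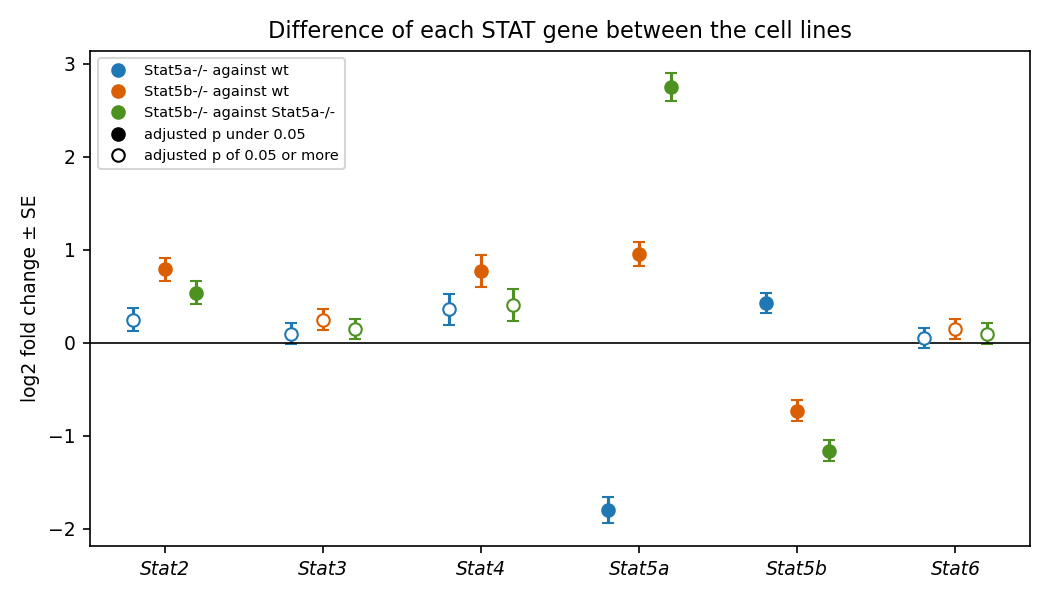
log2 fold change (vertical axis) with its SE for each STAT gene in the 3 comparisons between lines, filled where the adjusted p was under 0.05. Stat5a and Stat5b point in opposite directions in each comparison, and Stat3 and Stat6 have open symbols throughout.

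Levels of different genes were compared per kilobase of exon. The full exon length was used, so levels can be too low for genes that lose reads on shared exons, such as Stat4, Stat5a and Stat5b. In wt, Stat6 was highest with 29.6 ± 2.52 normalized CPM per kilobase (SD, n = 3), followed by Stat5b with 19 ± 0.353 and Stat3 with 7.66 ± 0.516. Stat4 with 6.11 ± 0.869 and Stat5a with 6.05 ± 0.89 overlapped, and Stat2 was lowest with 4.59 ± 0.539. In Stat5a-/-, Stat6 (30.6 ± 2.96) and Stat5b (25.6 ± 2.88) overlapped at the top, Stat3 (8.23 ± 0.727) and Stat4 (7.85 ± 1.65) overlapped, Stat2 followed with 5.47 ± 0.454, and Stat5a was lowest with 1.74 ± 0.143. In Stat5b-/-, Stat6 remained apart with 32.9 ± 2.97, and below it each gene overlapped with its neighbour in the order Stat5a (11.7 ± 1.43), Stat5b (11.5 ± 1.39), Stat4 (10.4 ± 1.47), Stat3 (9.11 ± 0.894) and Stat2 (7.93 ± 0.758).

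Of the summed level of the 6 genes per kilobase, the part of Stat6 was 40.5% ± 1.9 for wt, 38.5% ± 2.28 for Stat5a-/- and 39.3% ± 0.825 for Stat5b-/- (SD, n = 3). Stat5b took 26.1% ± 0.549, 32.1% ± 2.23 and 13.7% ± 0.818, and Stat5a 8.25% ± 0.912, 2.19% ± 0.0615 and 14.0% ± 1.34. Stat2 took 6.30% ± 0.945, 6.87% ± 0.261 and 9.49% ± 0.166. The sum itself was 73.1 ± 2.86 normalized CPM per kilobase in wt, 79.5 ± 4.6 in Stat5a-/- and 83.5 ± 6.7 in Stat5b-/-. Against wt, p was 0.1 for each knockout line in a two-sided exact permutation test, the smallest it can give. In wt, Stat6 exceeded 86.4% and Stat2 46.9% of all tested genes per kilobase. Stat5a moved from 53.4% in wt to 28.1% in Stat5a-/- and 68.6% in Stat5b-/- in this rank, and Stat5b from 79.0% to 82.9% and 68.1%.

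Among tested genes, those whose log2 levels over the 9 libraries were most like a STAT gene were picked by Pearson correlation, as a description. For Stat5a these were D630045J12Rik (0.997), Slc15a3 (0.997) and Wdfy3 (0.996). D630045J12Rik had means of 88.3, 15.8 and 246 normalized CPM in wt, Stat5a-/- and Stat5b-/-, the same order as Stat5a. For Stat5b they were Kcnk4 (0.993), Acsf2 (0.992) and Crim1 (0.990), and Acsf2 had means of 50.2, 86.7 and 23.4 normalized CPM in the same lines. Stat3 was most like Pold1 (0.992), Stat4 like 1300002E11Rik (0.985) and Stat6 like R3hdm4 (0.977). All genes of a library share its depth and GC bias, and 13852 genes were ranked for each.

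The pathway around the STAT genes was followed with 100 listed genes, of which 87 were tested. In Stat5a-/- against wt 36 were higher and 11 lower, with a median log2 fold change of 0.29 against 0.01 over all tested genes, and 36.0% of all tested genes called. In Stat5b-/- against wt 49 were higher and 12 lower (median 0.54 against 0.02), with 46.2% of all tested genes called. In Stat5b-/- against Stat5a-/- 33 were higher and 18 lower (median 0.28 against 0.02), with 33.9% of all tested genes called. With the T-cell marker covariate, 16 were higher and 8 lower in the first comparison, 9 and 4 in the second and 12 and 13 in the third. Over all tested genes that fit called 12.5% higher and 10.8% lower, 5.2% and 4.82%, and 6.36% and 8.47%, in the same order.

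Upstream of the STATs, 15 of 25 tested cytokine receptor genes were higher and 4 lower in Stat5a-/- than in wt, and 16 were higher and 4 lower in Stat5b-/-. Over all tested genes 19.8% were higher and 16.3% lower in the first comparison and 24.2% and 22.0% in the second. Il12rb1, a chain of the interleukin-12 receptor that signals through STAT4, had means of 0.643, 15.2 and 10.8 normalized CPM in wt, Stat5a-/- and Stat5b-/- (log2 fold changes against wt 4.54 ± 0.26 and 4.06 ± 0.27, adjusted p = 2.06e-08 and 5.9e-08, edgeR). Il12rb2, the other chain of this receptor, did not pass the filter on low counts, with means of 0.273, 0.284 and 0.751 in the same lines. Il10ra, the ligand-binding chain for interleukin-10 and a STAT3 receptor, rose from 1.55 to 33.8 and 28.8 normalized CPM (4.41 ± 0.20 and 4.18 ± 0.19, adjusted p = 1.6e-09 and 2.52e-09, edgeR). Lifr, a receptor gene lower in both knockout lines, fell from 22.0 to 11.8 and 0.561 normalized CPM (-0.90 ± 0.21 and -5.32 ± 0.31, adjusted p = 0.00381 and 1.8e-08, edgeR). Among the 4 Janus kinase genes, 1 (Jak3) was higher and 1 (Jak1) lower in Stat5a-/- than in wt, and 3 were higher and 1 (Tyk2) lower in Stat5b-/-. Jak1 had means of 429, 361 and 621 normalized CPM in wt, Stat5a-/- and Stat5b-/-, with log2 fold changes against wt of -0.25 ± 0.09 (adjusted p = 0.0433) and 0.53 ± 0.09 (adjusted p = 0.000273, both by edgeR).

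Genes known as targets of ISGF3, in which Stat2 acts, were higher in 7 of 13 cases in Stat5a-/- (median log2 fold change 0.96) and in 13 of 13 in Stat5b-/- (median 2.34) against wt, with none lower. Over all tested genes 19.8% were higher in Stat5a-/- and 24.2% in Stat5b-/-. Irf9, the DNA-binding partner of Stat2, had means of 19.3, 22.9 and 50.4 normalized CPM in wt, Stat5a-/- and Stat5b-/- (log2 fold change 1.38 ± 0.11 in Stat5b-/- against wt, adjusted p = 3.25e-07, edgeR). Usp18, an interferon-induced inhibitor of the interferon receptor, had means of 3.20, 4.33 and 16.4 normalized CPM in the same lines.

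Of 16 listed STAT5 targets, 7 were higher and 3 lower in Stat5a-/- than in wt, and 6 higher and 5 lower in Stat5b-/-. Directly between the knockout lines, 4 stood higher in Stat5b-/- and 10 in Stat5a-/-, and the median log2 fold change was -0.66. Over all tested genes 16.4% were higher in Stat5b-/- and 17.5% lower in this comparison. Cish, a feedback inhibitor of STAT5, had means of 14.8, 99.3 and 29.5 normalized CPM in wt, Stat5a-/- and Stat5b-/-. Pim1, a survival kinase, had 134, 340 and 78.9, and Il2ra, the alpha chain of the interleukin-2 receptor, had 13.9, 48.8 and 12.8. Cish, Pim1 and Il2ra were all lower in Stat5b-/- than in Stat5a-/- (log2 fold changes -1.75 ± 0.22, -2.11 ± 0.15 and -1.93 ± 0.13, adjusted p = 4.57e-05, 2.85e-07 and 1.02e-07, edgeR). The Stat5 sum, which includes reads of the knocked-out genes, had a ratio of 0.954 in Stat5b-/- against Stat5a-/- (two-sided exact permutation p = 0.6). The paralog not knocked out had means of 142 (Stat5b in Stat5a-/-) and 83.7 normalized CPM (Stat5a in Stat5b-/-). Whether these levels bear on the targets was not tested. STAT3 targets had 3 higher and 3 lower in each knockout line against wt. Of the tested targets, STAT6 had 3 higher and 1 lower of 6 in Stat5a-/- and 5 and 0 in Stat5b-/-, and STAT4 had 1 and 1 of 5 in Stat5a-/- and 2 and 1 in Stat5b-/-. Over all tested genes 36.0% and 46.2% were called in these comparisons, and the lists are short.

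The genes around the Stat5b, Stat5a and Stat3 cluster were examined for changes next to the knocked-out genes. Within 500000 bases on either side, 37 other genes were tested, of which 5 were higher and 10 lower in Stat5a-/- than in wt and 7 higher and 11 lower in Stat5b-/-. Over all tested genes 19.8% were higher and 16.3% lower in Stat5a-/-, and 24.2% higher and 22.0% lower in Stat5b-/-. Their median log2 fold changes were -0.07 and -0.11. The smallest p-values belonged to Tubg2, a gamma-tubulin gene, in Stat5a-/- (-2.62 ± 0.24, adjusted p = 1.49e-06) and to Ramp2, a receptor accessory protein gene, in Stat5b-/- (-6.17 ± 0.29, adjusted p = 2.82e-09, both by edgeR). Ramp2 had means of 17.6, 11.9 and 0.231 normalized CPM in wt, Stat5a-/- and Stat5b-/-. Stat3, whose exons overlap those of Stat5a, was not called in any comparison.

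**Figure D5:**
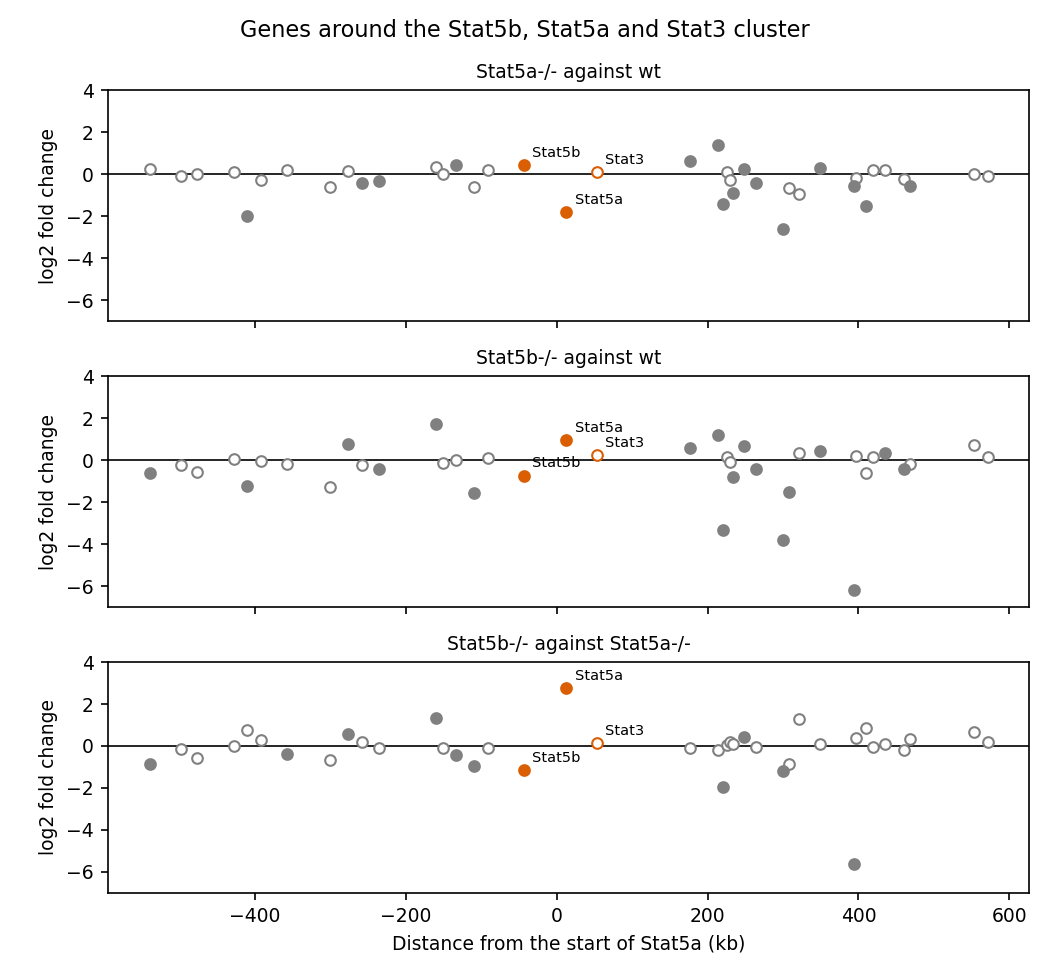
log2 fold change (vertical axes) of tested genes against the distance of the gene from the start of Stat5a in kilobases (horizontal axis), for the 3 comparisons. STAT genes are orange, other genes grey, and filled symbols have an adjusted p under 0.05; called neighbours lie on both sides of 0, with Ramp2 lowest at -6.17 in Stat5b-/- against wt.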

How the data were processed

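RNA was prepared with the SENSE mRNA-Seq kit and sequenced as 50 bp single-end reads. The authors trimmed reads with Trimmomatic, mapped them with STAR and deposited raw counts per gene from featureCounts 1.5.1 (GENCODE M13, GRCm38, exons joined per gene, strand not used), without normalization. Multi-mapping reads and reads on several genes are dropped by default. Symbols came from GENCODE M21 (50376 of 50686 genes matched).

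Tests used edgeR 4.0.16 (R 4.3.3) on TMM-scaled counts (filterByExpr, glmQLFit and glmQLFTest, 1 fit over 3 lines and 9 libraries, Benjamini-Hochberg adjustment). The standard error of a log2 fold change is its size divided by the root of the F statistic. Shares and sums were compared with exact permutation tests (scipy 1.17.1). Promoters are those of RefSeq, and shared 50-base stretches were counted over GENCODE M21 transcripts on both strands.

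The 6 genes were always named. Otherwise up to 4 called genes per pathway list with the largest change, the 3 neighbours with the smallest p and the 3 genes most like each member could be named, per comparison. Rag1, Ncr1, Nkg7, Klrb1c, Il12rb2, Bcl2 and Mcl1 were named after their values were seen. The members and lists were chosen with earlier results of these data known. Other genes of the family are not reported here.

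Alternatives were DESeq2 1.42.0, RLE size factors, other filters, fits of 2 lines, each library left out, a replicate block, a T-cell marker covariate, length scaling and other windows. An offset for GC content, alone and with the block, was chosen after seeing the data. On simulated counts with 200 changed genes, 82.8% of 2-fold and 99% of 4-fold changes were recovered for Stat5a-/- against wt, with 11 false calls among 13536 genes. The simulated counts had a common dispersion for all genes, no GC bias and fewer changed genes than these libraries, so the rates need not hold for them.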

Additional observations from a re-analysis of the deposited data

How the results depend on the processing

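The fold changes of Stat5a in all 3 comparisons and of Stat5b between the knockout lines kept their direction and call at an adjusted p of 0.05 under all 18 alternatives, although Stat5a in Stat5b-/- against wt moved from 0.96 to 1.65 with the T-cell marker covariate. Counts of STAT genes called moved as follows. In Stat5a-/- against wt the number higher was between 0 and 1 with single libraries left out, 0 with the T-cell marker covariate and 2 (Stat4 added) with the GC offset, alone or with the replicate block. In Stat5b-/- against wt the covariate left 1 higher and 0 lower, although Stat5b itself was -0.82 ± 0.35 there (adjusted p = 0.167, edgeR), against -0.73 ± 0.11 without it. The GC offset, alone or with the block, gave 4 higher in this comparison. In Stat5b-/- against Stat5a-/- the covariate left 1 higher, and the GC offset gave 4 alone (Stat3 and Stat6 added) and 2 with the block. It was 3 (Stat4 added) without a low-count filter or without Stat5b-/- replicate 2. With the covariate the pathway counts were 16 higher in Stat5a-/- against wt, 9 higher and 4 lower in Stat5b-/- against wt and 12 higher between the knockout lines. The covariate follows the lines, since their marker sums do not overlap.

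The Stat5 sum reversed on plain library totals, to a ratio of 0.941 for Stat5a-/- against wt and 1.03 for Stat5b-/- against Stat5a-/-. With single libraries left out the ratios lay between 0.985 and 1.10, between 0.948 and 1.04 for Stat5b-/- against wt, and between 0.902 and 1.00 for the knockout lines. None of these passed a test, and 2 against 3 libraries cannot give an exact p below 0.2.

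Single genes reversed as follows. Stat4 was -0.31, -0.45 and -0.14 with the covariate in Stat5a-/- against wt, Stat5b-/- against wt and Stat5b-/- against Stat5a-/-. Stat6 in Stat5a-/- against wt was -0.02 without wt replicate 2, -0.06 without Stat5a-/- replicate 3 and -0.07 with the GC offset, alone or with the replicate block. The cause was not tested.

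For the neighbourhood, windows of 250000 bases gave 6 lower in Stat5a-/- against wt, 7 lower in Stat5b-/- against wt and 4 lower between the knockout lines, out of fewer genes. Windows of 1000000 bases gave 8 higher in Stat5a-/- against wt and 6 higher between the knockout lines. The replicate block gave 3 higher in Stat5a-/- against wt. It changed no call among the 6 STAT genes, with 1 higher and 1 lower in Stat5a-/- against wt. Deviations of libraries that share a replicate number had correlations between -0.445 and 0.216, with 2 of 9 pairs over 0.1, so the numbers pair no samples.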
